A study of Mus musculus with 8 samples.

Results

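The mitochondrial respiratory chain and ATP synthase were followed here through the transcripts of their nuclear-encoded subunits in skin of E18.5 mouse embryos, shortly before birth. Members were all probe sets with exactly 1 gene symbol that begins with Nduf, Uqcr or Atp5, is Sdha, Sdhb, Sdhc or Sdhd, or is Cox followed by 4, 5, 6, 7 or 8, with Cox7a1 and Cox8b left out. The A chip held 95 such probe sets for 69 genes, out of 12422 probe sets that are not controls. The B chip held 14 for 14 genes, out of 12411. Both chips together gave 109 probe sets for 74 genes, and 9 genes were on both. A further 10 probe sets of the A chip and 3 of the B chip carried a member symbol together with that of a copy or pseudogene, among them those of Ndufs5, Ndufs6, Ndufa11, Ndufb4 and Cox7c, and were left out.

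Parents heterozygous for a p63 mutation gave the embryos, and p63 is the product of Trp63, a transcription factor that stratified epithelia need. The groups were p63 null skin and wild-type skin, each with 2 arrays of the A chip and 2 of the B chip, 8 arrays in all, and no agent or further allele is given for either group. The design names 2 embryos of each genotype, so differences were read against the spread between these 2 embryos only. The labels give neither the strain nor how the allele was made, and no site of the skin. Whole skin is a mixture of epidermis, dermis and what lies beneath it, so a lower signal from fewer cells of a type and from less RNA per cell cannot be told apart.

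As background, complex I (NADH dehydrogenase, Nduf genes) and complex II (succinate dehydrogenase, Sdh genes) feed electrons to ubiquinone. Complex III (cytochrome bc1, Uqcr genes) hands them to cytochrome c, and complex IV (cytochrome c oxidase, Cox genes) passes them to oxygen. Complexes I, III and IV pump protons across the inner membrane, and complex V (ATP synthase, Atp5 genes) uses the gradient to make ATP. All complexes except II also hold subunits encoded in mitochondrial DNA, for which 0 probe sets were matched on these chips. Tissues rich in mitochondria, such as skeletal muscle and brown fat, hold much of these transcripts, and a few subunits have isoforms that are typical of muscle or fat.

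Transcripts of the respiratory chain were more often higher than lower in p63 null skin. On the A chip 63 of the 69 member genes passed the filter on low values, each read by its tested probe set with the highest mean signal. Of these, 29 rose and 1 fell in the limma fit over the whole chip at an adjusted p under 0.05, and 33 did not pass the test. Rises made up 46.0% of the tested member genes, and over all genes tested on the chip 22.4% rose. Falls made up 1.59% of the tested members and 22.8% of all genes. Counted by probe set, 31 of 73 tested member probe sets rose and 1 fell, where 22.1% of all tested probe sets rose and 22.2% fell. The median log2 fold change of the tested member genes, null minus wild type on a log2(signal + offset) scale whose constant offset damps the noise of dim probe sets, was 0.33, with quartiles of 0.07 and 0.61 and a range from -0.48 to 1.47. The median over all genes tested was 0.01. Both null arrays lay above both wild-type arrays for 44 of the 63 genes (69.8%), beside 37.8% of all genes, and below for 4 (6.35%), beside 37.3% of all genes. With the second wild-type array left out, 15 member genes rose and 0 fell, and without the first wild-type array 20 rose and 1 fell. Those 15 and those 20 were all among the 29. Over all probe sets of the chip 14.4% rose without the second wild-type array and 18.49% without the first. Of the 30 calls, 15 passed under every alternative that refitted the chip: Ndufab1, Ndufa3, Ndufa8, Ndufb8, Ndufb10, Ndufs1, Sdha, Sdhb, Sdhc, Sdhd, Uqcrc1, Uqcrc2, Cox5b, Cox6a2 and Atp5d. Of these, Ndufa3, Sdhb, Uqcrc2 and Atp5d were not read by plain probe sets. The restriction to plain probe sets, given below, therefore left them out and did not check them.

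**Figure D1:**
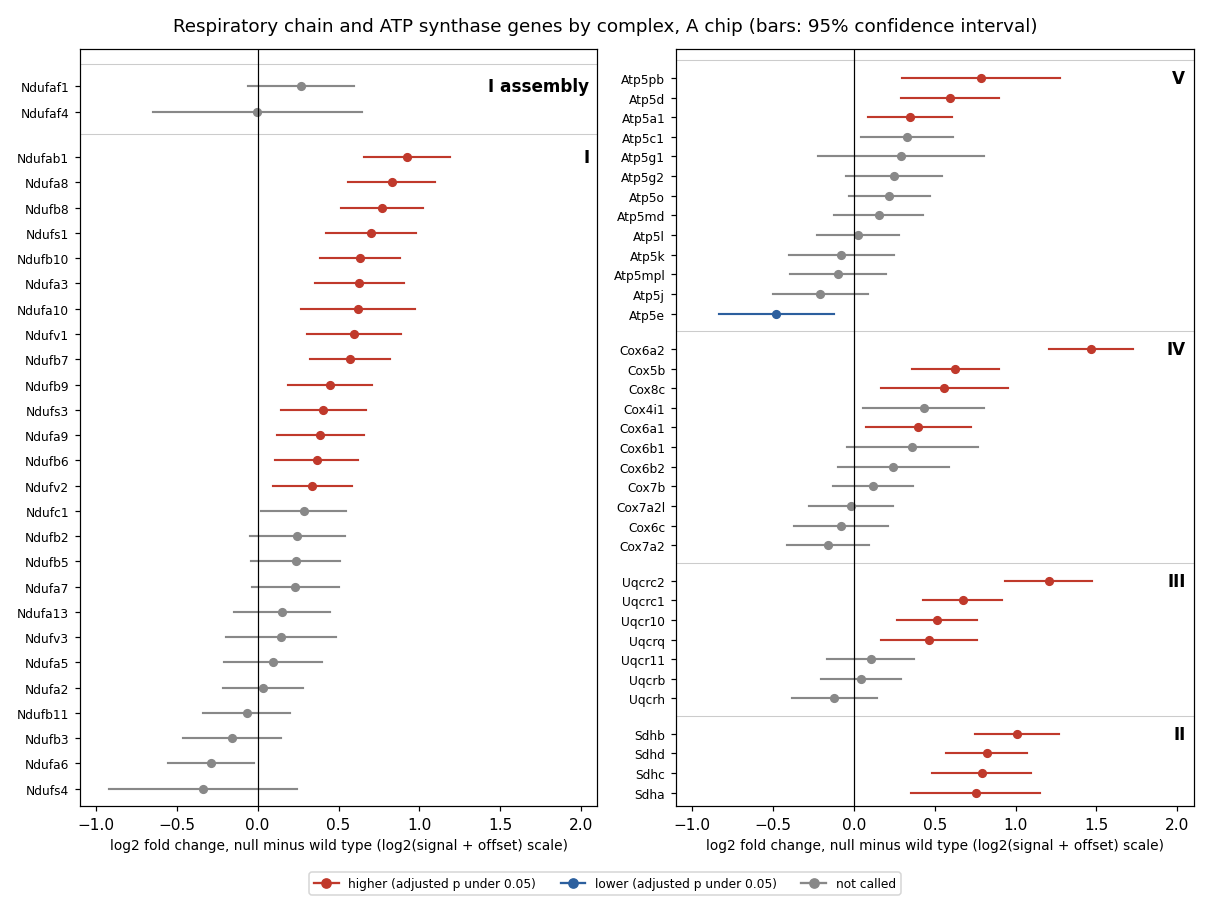
Log2 fold change (null minus wild type, x axis) of the 63 tested member genes of the A chip, grouped by complex, with assembly factors of complex I apart. Points are the limma estimates from 2 null and 2 wild-type arrays, bars their 95% confidence intervals, and colours the calls: 29 genes higher, 1 lower (Atp5e) and 33 not called.

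Other parts of the tissue moved with these genes, and the size of those shifts is given here because the members are active in many cell types. Beside the marker counts below, 22.4% of all genes on the A chip rose and 22.8% fell. All 28 tested skeletal muscle markers rose, and their median log2 fold change was 1.29. With no filter 24 of the 28 passed. With single arrays left out their median ran from 1.26 to 1.37. The summed signal of the muscle markers was 23806.3 and 23260.3 in the wild-type arrays and 47812.6 and 52911.9 in the null arrays. Of 16 tested markers of brown and white fat, 12 rose and 0 fell (median 1.27), and their summed signal went from 12914.2 and 12478.4 in wild type to 27341.1 and 28857.5 in null. Ucp1, the uncoupling protein of brown fat, read 33.8 and 31.7 in wild type and 1859.1 and 2022.6 in null. Leukocyte markers also rose, 16 of 17 (median 1.32), and their sum went from 5130.7 and 4871.8 in wild type to 15364.6 and 15858.7 in null. Of 18 tested keratinocyte markers 16 fell and 0 rose (median -3.09), with sums of 46918.1 and 45574.2 in wild type and 5147.0 and 5797.3 in null. Of 17 fibroblast markers 6 rose and 0 fell (median 0.30), with 12 rises without null array 1, 3 without wild-type array 1 and 2 without wild-type array 2. The 6 fibroblast rises were 35.3% of that list, beside the 22.4% of all genes. In addition 17 of 19 cell cycle genes fell (median -0.81). The muscle, fat, leukocyte and keratinocyte sums of the genotypes do not overlap, and 0 markers of these lists read 0. Endothelial markers rose in 8 of 11 cases and erythroid markers in 4 of 8, with 0 falls in each, and 2 erythroid markers rose without wild-type array 1 and 1 without wild-type array 2. Some of these markers also stand in pathway lists below: Cox7a1 and Cox8b of the fat list among the carriers and subunits outside the name rule, and Ckm of the muscle list among the genes of ATP and phosphate exchange. The part of these cell types in the rise of the respiratory chain was not tested.

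Few facts of the whole series bear on these values. Trp63 read 379.3 and 347.1 in the wild-type arrays and 61.9 and 46.6 in the null arrays, which was -2.49 as a log2 fold change (adjusted p = 1.1e-05). The keratins Krt1 and Krt10 and the collagens Col1a1 and Col3a1 were bright in wild type. Between replicate arrays the log2 values of tested probe sets, which are not independent, had correlations of 0.984 (wild type) and 0.980 (null) on the A chip and of 0.966 and 0.950 on the B chip. The 3 prime over 5 prime signal ratio of beta-actin, a gauge of RNA integrity, came to 1.63 and 1.69 for wild type against 1.27 and 1.27 for null on the A chip, and to 1.5 and 1.98 against 1.36 and 1.33 on the B chip. The beta-actin ratio thus differed with genotype. For Gapdh the same kind of ratio was 1.47 and 2.46 in the A-chip wild-type arrays, against 1.25 and 1.45 in null. Its B-chip values were 1.55 and 2.66 for wild type and 1.26 and 1.51 for null. By Gapdh, wild-type array 2 stood well above all others of its chip, and wild-type array 1 lay close to null array 2. The part of these ratios in the member results was not tested.

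As a description only, the promoters of the members were read for the letters of factors known from nuclear-encoded mitochondrial genes. RefSeq windows of assembly GRCm38.p6, 300 bases long with 250 before the annotated start, were matched for 61 of the 74 member genes, giving 66 windows out of 32851. Both strands were searched. The NRF1 core GCGCATGCG stood in 13.6% of the member windows and 1.75% of all windows, and its loose form GCGCNNGCG, which includes it, in 40.9% and 12.1%. The ETS core CCGGAAG stood in 25.8% and 8.86%, and the YY1 sequence AAGATGGCG in 10.6% and 1.4%. The ERR site AAGGTCA stood in 7.58% and 4.72%, its extended form TCAAGGTCA in 1.52% and 0.42%, and the TATA box TATAAA in 10.6% and 13.6%. Median GC content was 59.0% in the member windows and 52.7% in all windows, so the GC-rich motifs meet a different base composition there. Members called higher on the A chip had 22 of the windows, and the 44 others include those of genes called on the B chip only, such as Ndufs7. Of these 22 and 44 windows, GCGCNNGCG stood in 45.5% and 38.6%, GCGCATGCG in 13.6% of each, and CCGGAAG in 27.3% and 25%. AAGATGGCG stood in 4.55% and 13.6%, AAGGTCA in 4.55% and 9.09%, TCAAGGTCA in 4.55% and 0%, and TATAAA in 9.09% and 11.4%. A share of 4.55% is 1 window, and no test was made. The windows of Ndufab1, Sdhb and Sdhd are shown for genes with large rises, and that of Atp5e for the gene that fell. They were picked as examples, and each holds a match. Cox6a2 (log2 fold change 1.47) and Uqcrc2 (1.21) rose more and were not among the members with a match to any of these motifs. A member without a matched window could not be searched. Each runs 5′ to 3′ on the strand of the gene from 250 bases before the start to 30 bases from it on, and capitals mark GCGCNNGCG or CCGGAAG, read on either strand, overlapping matches as 1 block.
Ndufab1, chr7:122101819-122102098, minus strand: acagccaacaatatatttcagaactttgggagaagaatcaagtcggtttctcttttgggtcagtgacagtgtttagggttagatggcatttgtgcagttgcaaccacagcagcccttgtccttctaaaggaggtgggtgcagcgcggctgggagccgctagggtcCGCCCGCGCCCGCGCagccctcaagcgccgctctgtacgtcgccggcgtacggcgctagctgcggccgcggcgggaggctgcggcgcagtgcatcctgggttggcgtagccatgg
Sdhb, chr4:140961021-140961300, plus strand: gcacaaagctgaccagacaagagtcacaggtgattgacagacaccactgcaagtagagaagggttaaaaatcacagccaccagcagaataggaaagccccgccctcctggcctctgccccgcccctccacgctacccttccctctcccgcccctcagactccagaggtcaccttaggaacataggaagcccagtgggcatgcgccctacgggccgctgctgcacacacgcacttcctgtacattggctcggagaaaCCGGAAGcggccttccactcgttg
Sdhd, chr9:50603820-50604099, minus strand: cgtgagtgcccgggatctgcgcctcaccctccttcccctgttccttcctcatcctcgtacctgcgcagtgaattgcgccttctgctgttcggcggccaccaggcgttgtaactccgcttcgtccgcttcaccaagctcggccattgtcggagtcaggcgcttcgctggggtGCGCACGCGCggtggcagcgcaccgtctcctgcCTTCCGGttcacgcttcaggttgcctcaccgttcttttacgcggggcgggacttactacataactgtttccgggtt
Atp5e, chr2:174464072-174464351, minus strand: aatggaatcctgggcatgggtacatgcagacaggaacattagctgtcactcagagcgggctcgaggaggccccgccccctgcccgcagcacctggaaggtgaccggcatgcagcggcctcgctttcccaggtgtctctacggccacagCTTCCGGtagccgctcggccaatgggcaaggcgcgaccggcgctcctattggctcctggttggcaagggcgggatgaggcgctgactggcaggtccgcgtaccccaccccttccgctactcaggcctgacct
The Ndufab1 window thus holds overlapping GCGCNNGCG matches, the Sdhb window a CCGGAAG just after the start, the Sdhd window both motifs, and the Atp5e window a CCGGAAG on the opposite strand. The searched windows ran on to 50 bases from the start. Beyond the printed part reached the TCAAGGTCA of Sdhd, the only member with that extended ERR site, and an AAGGTCA of Atp5e. A match of letters is a description of the window only, and the arrays measured no binding.

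In complex I, 14 of the 26 tested subunit genes rose on the A chip and 0 fell, with a median log2 fold change of 0.35. The rises were 53.8% of these genes, beside 22.4% of all genes on the chip, of which 22.8% fell. All 4 tested core subunits rose, with a median of 0.50, and 10 of the 22 accessory subunits did, with a median of 0.27. Ndufs1, the large iron-sulfur subunit of the peripheral arm, read 669.7 and 781.1 in the wild-type arrays and 1145.7 and 1219.4 in the null arrays, which was 0.70 as a log2 fold change (SE 0.12, adjusted p = 0.0018). Ndufv1, which binds the flavin and NADH, read 2321.6 and 1942.2 in wild type and 3395.0 and 3051.0 in null (0.60, SE 0.13, adjusted p = 0.0050). The null arrays lay above the wild-type arrays for both. Ndufs3, another peripheral-arm core subunit, read 1238.3 and 1370.5 in wild type and 1793.6 and 1672.1 in null, which was 0.41 as a log2 fold change (adjusted p = 0.019). Ndufv2, the iron-sulfur partner of Ndufv1, read 1869.2 and 1961.9 in wild type and 2394.7 and 2453.2 in null, which was 0.34 as a log2 fold change (adjusted p = 0.032). The genotypes did not overlap in either gene, but the rises were smaller than that of Ndufs1. The call of Ndufv1 was lost without wild-type array 2 (adjusted p = 0.10), that of Ndufs3 without wild-type array 1 (0.17) or 2 (0.062), and that of Ndufv2 without wild-type array 1 (0.23) or 2 (0.16).

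The largest rises of complex I were those of accessory subunits. Ndufab1, the mitochondrial acyl carrier protein that is also a complex I subunit, read 1428.9 and 1457.9 in wild type and 2557.1 and 2961.2 in null, which was 0.92 as a log2 fold change (SE 0.12, adjusted p = 0.00029). Ndufa8, on the intermembrane side, read 536.2 and 568.3 in wild type and 943.3 and 1040.7 in null (0.83, SE 0.12, adjusted p = 0.00056). Both genes were clearly separated by genotype. Ndufb8 (0.77), Ndufb10 (0.63), Ndufa3 (0.63), Ndufa10 (0.62), Ndufb7 (0.57), Ndufb9 (0.45), Ndufa9 (0.39) and Ndufb6 (0.36) also rose in log2 fold change. Of these, the calls of Ndufa10 (adjusted p = 0.054), Ndufb7 (0.054), Ndufb9 (0.069), Ndufa9 (0.054) and Ndufb6 (0.19) were lost without wild-type array 2. Those of Ndufb9 (0.12), Ndufa9 (0.25) and Ndufb6 (0.15) were also lost without wild-type array 1. Complex I then had 6 rises without wild-type array 2 and 9 without wild-type array 1. The 12 accessory genes that did not pass the test ranged from Ndufs4 at -0.34 to Ndufc1 at 0.29. Ndufa6 was the only tested complex I gene with both null arrays below both wild-type arrays, at 797.3 and 799.7 in wild type and 686.3 and 619.7 in null, which was -0.29 as a log2 fold change (adjusted p = 0.077). It fell in the fit without null array 1 (adjusted p = 0.041), as did Ndufb3 (0.025). At the other end, Ndufa2 read 1011.4 and 1026.0 in wild type and 1044.5 and 1042.6 in null, a log2 fold change of 0.03 with a 95% confidence interval from -0.21 to 0.28. Its interval holds no change of the size seen in Ndufab1 or Ndufa8.

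All 4 genes of complex II, the succinate dehydrogenase that also serves the citric acid cycle, rose on the A chip, with a median log2 fold change of 0.81. Sdhb, the iron-sulfur subunit, read 1356.7 and 1429.4 in wild type and 2652.6 and 2984.5 in null, which was 1.01 as a log2 fold change (SE 0.12, adjusted p = 0.00016). Sdhd, a membrane anchor, read 1341.7 and 1439.5 in wild type and 2425.7 and 2505.6 in null (0.82, SE 0.11, adjusted p = 0.00039). In both, the lowest null array was well above the highest wild-type array. Sdhc, the other membrane anchor, read 1601.0 and 1796.1 in wild type and 2630.0 and 3288.6 in null (0.79, SE 0.14, adjusted p = 0.0016). Sdha, the flavoprotein that oxidises succinate, read 172.1 and 209.9 in wild type and 376.9 and 287.2 in null (0.75, SE 0.18, adjusted p = 0.0078). Sdha thus showed the widest relative spread between the null arrays, and still no overlap. All 4 calls passed with any single array left out.

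In complex III, 4 of 7 tested genes rose and 0 fell, with a median log2 fold change of 0.46. The rises were 57.1% of these genes, beside 22.4% of all genes on the chip, of which 22.8% fell. The core proteins, which face the matrix, led. Uqcrc2 read 1056.3 and 1068.5 in wild type and 2283.5 and 2667.2 in null, which was 1.21 as a log2 fold change (SE 0.12, adjusted p = 6.7e-05). Uqcrc1 read 1925.6 and 1938.2 in wild type and 3091.7 and 3082.4 in null (0.67, SE 0.11, adjusted p = 0.0010). The replicates of Uqcrc1 differed far less than the genotypes. The small subunits Uqcr10 (0.51, adjusted p = 0.0047) and Uqcrq (0.46, adjusted p = 0.019) rose as well, in log2 fold change. Without wild-type array 1 or 2, however, the adjusted p of Uqcr10 was 0.054 or 0.070 and that of Uqcrq 0.13 or 0.14, and complex III had 2 rises in each of these fits. Uqcr11 (0.10), Uqcrb (0.04) and Uqcrh (-0.12) did not pass the test, and their arrays overlapped between genotypes. Uqcrh, the hinge protein that contacts cytochrome c1, read 3085.8 and 3399.7 in wild type and 2857.3 and 3107.1 in null. Within this complex the change thus ranged from over 1 in log2 to none beyond the replicate spread. Uqcrfs1, the Rieske protein, was not analysed here.

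Complex IV had the largest single rise and also many genes that did not pass the test. Of 11 tested genes 4 rose and 0 fell, with a median log2 fold change of 0.36. The rises were 36.4% of its tested genes, beside 22.4% of all genes on the chip, of which 22.8% fell. Cox6a2, the isoform of subunit VIa typical of heart and skeletal muscle, read 809.0 and 835.1 in wild type and 2173.1 and 2422.8 in null, which was 1.47 as a log2 fold change (SE 0.11, adjusted p = 1.6e-05). Cox6a1, its widely expressed counterpart, read 4001.2 and 4114.1 in wild type and 4662.1 and 6154.6 in null (0.40, SE 0.14, adjusted p = 0.049). The null arrays of Cox6a1 differed more from each other than the lower of them differed from wild type. Its call was lost without null array 2 (adjusted p = 0.084), wild-type array 1 (0.24) or wild-type array 2 (0.22). Cox5b, a nuclear-encoded subunit on the matrix side, read 2031.0 and 2187.3 in wild type and 3043.0 and 3496.0 in null (0.63, SE 0.12, adjusted p = 0.0028). Cox8c, an isoform known from testis, read 329.5 and 235.9 in wild type and 449.9 and 386.9 in null (0.56, SE 0.18, adjusted p = 0.028). The call of Cox8c was lost without null array 1 (adjusted p = 0.075) or wild-type array 2 (0.22), and complex IV had 2 rises without wild-type array 2.

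The isoform pairs of complex IV had unequal log2 fold changes. Beside Cox6a2, the muscle and fat isoforms outside the name rule rose. Cox7a1 read 43.4 and 58.1 in wild type and 519.1 and 525.3 in null, a log2 fold change of 3.08, while Cox7a2, the widely expressed isoform, read 3452.1 and 3394.8 in wild type and 2937.4 and 3198.8 in null (-0.16, adjusted p = 0.28). Cox7a2 had both null arrays below both wild-type arrays, and Cox7a2l, a related protein of supercomplexes, overlapped between genotypes (-0.02, 95% confidence interval -0.28 to 0.24). Cox8b read 385.2 and 358.3 in wild type and 1203.6 and 1216.5 in null (1.67), and its counterpart Cox8a did not pass the filter on low values. Cox4i1, the main isoform of subunit IV, read 155.4 and 168.5 in wild type and 201.8 and 245.7 in null on the A chip (0.43, adjusted p = 0.060). Cox6b1 (0.36), Cox6b2 (0.24), Cox7b (0.12) and Cox6c (-0.08) did not pass the test either. The differences between isoforms were not tested, since signals of different probe sets are not on a common scale. Cox4i2 was not analysed here.

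**Figure D2:**
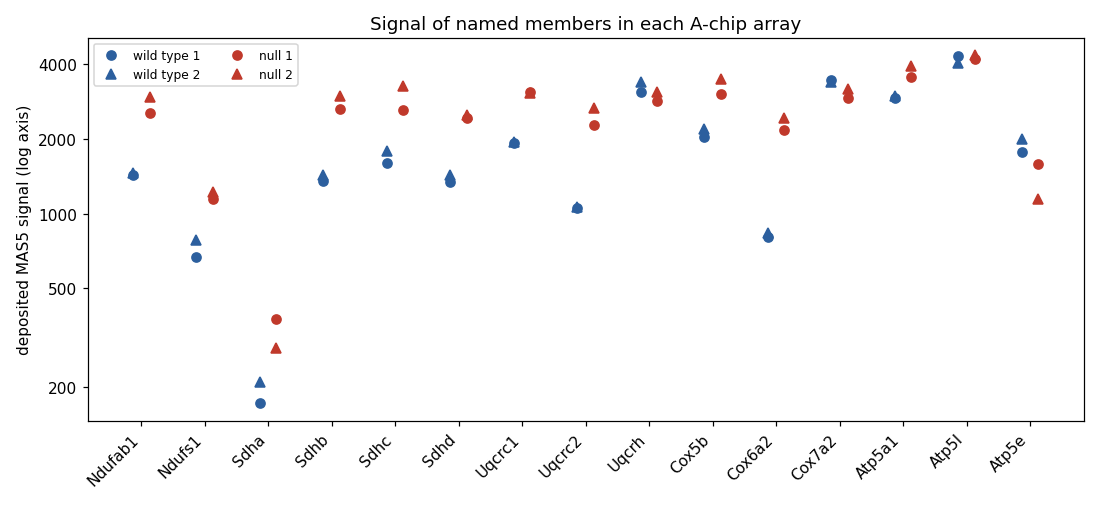
Deposited signal (y axis, log scale) of 15 member genes in each A-chip array, wild type in blue and null in red, circles for embryo 1 and triangles for embryo 2. All 4 Sdh genes, both Uqcrc genes and Cox6a2 show no overlap of the genotypes, whereas the arrays of Uqcrh and Atp5l overlap and Atp5e lies lower in null.

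ATP synthase showed the smallest median shift of the complexes, 0.22 in log2 fold change, with 3 of 13 tested genes higher and 1 lower. The rises were 23.1% of its tested genes, near the 22.4% of all genes on the chip, and the fall was 7.69%, beside 22.8%. Differences between complexes were not tested. Atp5a1, the alpha chain of the catalytic head, read 2917.7 and 2980.6 in wild type and 3564.0 and 3959.1 in null, which was 0.35 as a log2 fold change (SE 0.11, adjusted p = 0.034). Atp5c1, the gamma chain of the rotor, read 3035.9 and 3164.8 in wild type and 3553.0 and 4268.7 in null (0.33, adjusted p = 0.060). Neither gene overlapped between genotypes, and both shifts were modest. Atp5d, the delta chain, read 390.7 and 369.5 in wild type and 535.4 and 629.1 in null (0.59, SE 0.13, adjusted p = 0.0063). Atp5pb, subunit b of the peripheral stalk, read 83.1 and 65.0 in wild type and 117.2 and 158.6 in null (0.79, SE 0.22, adjusted p = 0.016). Its probe set was dim, which leaves it with a wide confidence interval from 0.30 to 1.28. The call of Atp5a1 was lost without wild-type array 1 (adjusted p = 0.23) or 2 (0.22), and that of Atp5pb without null array 2 (0.090) or wild-type array 2 (0.093).

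Atp5e, the epsilon chain that sits with gamma and delta in the central stalk, was the member that fell. It read 1776.3 and 2005.1 in wild type and 1588.7 and 1147.8 in null, which was -0.48 as a log2 fold change (SE 0.16, adjusted p = 0.035). The null arrays lay below the wild-type arrays but were far apart, and without null array 2 the log2 fold change was -0.25 (adjusted p = 0.10), and without wild-type array 2 it was -0.39 (0.18). The remaining complex V genes did not pass the test. Atp5l, subunit g, read 4345.8 and 4043.3 in wild type and 4190.0 and 4355.4 in null (0.03, 95% confidence interval -0.23 to 0.28). The subunit c genes Atp5g1 (0.29) and Atp5g2 (0.25), which encode the same mature protein of the rotor ring, and the peripheral stalk protein Atp5o (0.22) had both null arrays above both wild-type arrays. Atp5md (0.15) did too, while the arrays of Atp5j (-0.21) and Atp5mpl (-0.10) overlapped, and both null arrays of Atp5k (-0.08) lay below. Without null array 1, complex V had 6 rises, with Atp5c1 (adjusted p = 0.0011), Atp5md (0.019) and Atp5g2 (0.047) added, and without wild-type array 2 it had 1. The beta chain Atp5b and Atp5g3 were not analysed here.

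Log2 fold changes also differed by signal, which is given without a test. The 31 tested genes above the set's median signal had a median log2 fold change of 0.23, and the 32 at or below it one of 0.40. A number of these probe sets are designed on sequence shared with related genes or processed copies, which are common for respiratory chain genes. Restricted to the 46 genes read by a plain probe set, 24 rose and 0 fell, with a median log2 fold change of 0.34. Probe sets of a gene did not always give the same call. Of the tested probe sets of Atp5d on the A chip, 3 rose, at log2 fold changes of 0.59, 0.68 and 1.12. None of these is a plain probe set. The only tested plain probe set of Atp5d, its dimmest, did not pass the test (0.52, adjusted p = 0.15). The bright probe set of Ndufa3 rose (0.63), while a dim one overlapped between genotypes at 89.4 and 97.1 in wild type and 103.0 and 89.2 in null (0.04). The dim probe set of Ndufv2 did not pass the test (0.40, adjusted p = 0.084). The 6 member genes of the A chip with no tested probe set were Ndufa1, Ndufa12, Ndufc2, Cox5a, Cox8a and Atp5j2, none of which reached a signal above 60.3 in any array.

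The B chip added 14 member probe sets, of which 11 passed the filter, 4 rose and 0 fell. Over all tested probe sets of that chip 14.5% rose and 14.9% fell, and over its genes 16.1% rose and 16.0% fell. The member median log2 fold change was 0.32, beside 0.04 over all genes. Ndufs7, the core subunit next to the ubiquinone site of complex I, read 6090.5 and 7160.6 in wild type and 10870.8 and 10887.9 in null, which was 0.72 as a log2 fold change (SE 0.12, adjusted p = 0.0055). Sdhb read 2659.3 and 2570.1 in wild type and 3817.0 and 4805.4 in null (0.70, SE 0.14, adjusted p = 0.010). Cox4i1 read 1734.4 and 1629.5 in wild type and 2416.0 and 2708.0 in null (0.59, SE 0.13, adjusted p = 0.013). In these genes the genotypes were well apart. Cox6a1 read 819.0 and 751.3 in wild type and 1056.1 and 1522.5 in null (0.66, SE 0.19, adjusted p = 0.038). These calls rest on few arrays. With either wild-type array left out, 1 of 11 members was called, and over all probe sets of the chip 8.1% rose without wild-type array 1 and 7.75% without wild-type array 2. Without wild-type array 1 only Sdhb was called, with Ndufs7 at an adjusted p of 0.056, Cox4i1 at 0.058 and Cox6a1 at 0.089. Without wild-type array 2 only Ndufs7 was called, with Sdhb at 0.058, Cox4i1 at 0.097 and Cox6a1 at 0.15. Without null array 2 Cox6a1 stood at 0.095.

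No tested Ndufaf gene passed the test on either chip. These members encode assembly factors, proteins that help build complex I but are no part of it. On the A chip Ndufaf1 (0.27) and Ndufaf4 (0.00) did not pass the test. On the B chip neither Ndufaf3 (0.32) nor Ndufaf4 (-0.37), Ndufaf5 (-0.52) or Ndufaf8 (-0.34) did. The last 3 had both null arrays below both wild-type arrays, as did 1740 of all 5345 genes tested on the B chip. Both null arrays lay above in 1978 of those genes. Ndufaf5 read 380.8 and 348.8 in wild type and 206.9 and 271.0 in null, with an adjusted p of 0.10. Without null array 1 Ndufaf4 fell (adjusted p = 0.043), and without null array 2 Ndufaf8 did (0.025). Ndufaf2 read 240.9 and 187.1 in wild type and 13.4 and 34.0 in null and did not pass the filter on low values. With no filter its log2 fold change was -1.79 (adjusted p = 0.012), from a probe set of the kind that departs from the usual design rules.

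Of the 9 genes on both chips 7 were tested on both. Sdhb and Cox6a1 rose on both chips. Ndufab1 (0.92 and, on the B chip, 0.32), Sdhc (0.79 and 0.08) and Uqcrc1 (0.67 and 0.42) rose on the A chip and did not pass the test on the B chip. Cox4i1 did the reverse, at 0.43 and 0.59. The B-chip probe set of Sdhc was dim and noisy, at 194.5 and 346.8 in wild type and 244.7 and 320.8 in null, and its 95% confidence interval ran from -0.58 to 0.74. That of Ndufab1 ran from -0.30 to 0.95, which includes the A-chip estimate. Differences between the chips were not tested, and the chips carry different probe sets that may have been hybridised with RNA of the same embryos.

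**Figure D3:**
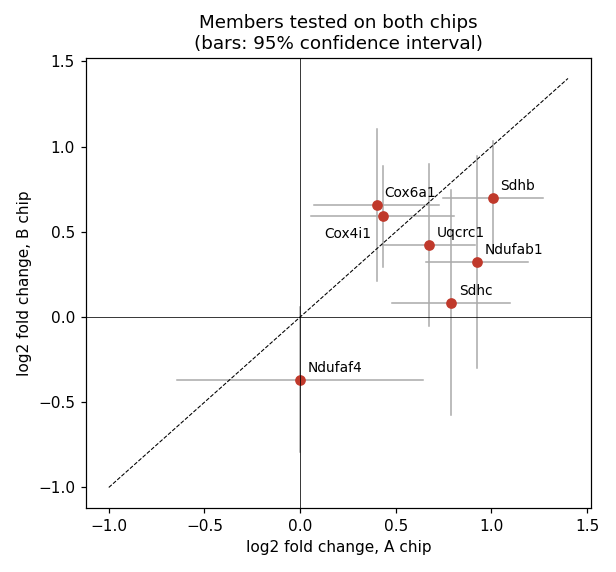
Log2 fold change (null minus wild type) on the A chip (x axis) against the B chip (y axis) for the 7 member genes tested on both, with 95% confidence intervals and the line of equality. Sdhb and Cox6a1 rose on both chips, and the interval of Sdhc on the B chip spans 0.

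Other genes of the pathway, from lists of electron carriers, assembly factors and related functions, did not all move with the subunits. Of 16 tested A-chip genes for electron carriers, ubiquinone synthesis and subunits outside the name rule, 12 rose and 0 fell, with a median log2 fold change of 0.76. Without Cox7a1 and Cox8b, which are also fat markers, 10 of 14 rose, with a median of 0.73. Among them, Cyc1, the cytochrome c1 of complex III, stood at 0.71 and Cycs, cytochrome c itself, at 0.66. Etfb (0.93) and Etfdh (1.05), which pass electrons from fatty acid oxidation to ubiquinone, rose too. Gpd2, the glycerol phosphate dehydrogenase that also feeds ubiquinone, reached 1.96, and Coq5 and Coq9 of ubiquinone synthesis 0.97 each. The median is near that of complex II, 0.81, and they were not compared by a test. On the B chip 5 of 9 genes of this list rose and 0 fell, with a median of 0.47, among them Coq8a at 2.62. Without wild-type array 1, 3 rose and 0 fell, and without null array 2, 3 of 8 rose and 1 fell, which was Coq2 of ubiquinone synthesis (-0.44, adjusted p = 0.039).

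Of 20 tested assembly factors on the A chip 5 rose and 5 fell, with a median log2 fold change of 0.24. Each count is 25% of the list, near the 22.4% of all genes that rose and the 22.8% that fell. Ndufaf1 and Ndufaf4 are among these 20. Cox17, a copper chaperone of complex IV (0.42), Higd2a (0.44), Lrpprc, which stabilises mitochondrial messenger RNA (0.47), Tmem70 of ATP synthase assembly (0.82) and Uqcc1 of complex III assembly (0.92) rose. Acad9, an assembly factor of complex I (-1.0), Slirp, the partner of Lrpprc (-0.81), Cox16 (-0.77), Higd1a (-0.66) and Uqcc2 (-0.53) fell. Lrpprc (adjusted p = 0.024) and Slirp (adjusted p = 0.0013), which act as a pair, thus went opposite ways in the fit with all arrays. Uqcc1 scattered between replicates, at 149.3 and 274.8 in wild type and 297.0 and 524.7 in null (SE 0.30). The number of rises was 8 without null array 1, 3 without null array 2 or wild-type array 2, and 1 without wild-type array 1, while the falls numbered 4 or 5. On the B chip 4 of 22 rose and 4 fell (median 0.06), 18.2% each and near the shares of all genes there, 16.1% and 16.0%, and Acad9 was among the falls (-0.92, adjusted p = 0.030). With either wild-type array left out 1 rose and 1 fell.

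The machinery that makes and imports mitochondrial proteins showed medians near 0. Of 57 tested mitochondrial ribosome genes on the A chip 10 rose and 5 fell, 17.5% and 8.77%, at a median log2 fold change of -0.05. Of 21 import and chaperone genes 4 rose and 5 fell, 19.0% and 23.8% (median 0.03). Over all genes of the chip 22.4% rose and 22.8% fell, which is near both shares of the import list. The ribosome list was taken by the name prefixes Mrpl and Mrps, so not every gene in it need encode a ribosome protein. In this list Mrps36 (1.11), Mrpl34 (0.79) and Mrpl38 (0.79) rose most and Mrps22 fell most (-0.71). Among import genes Tomm40, the pore of the outer membrane, rose (0.60) and Tomm34 fell (-1.07). The rises of the ribosome list numbered 5 with either wild-type array left out and 6 without null array 1, and its falls 1 without wild-type array 2 and 3 without wild-type array 1. The import list had 1 rise without null array 2 and 0 without wild-type array 2, and its falls then numbered 5 and 3. On the B chip 2 of 17 ribosome genes rose and 2 fell, 11.8% each beside 16.1% and 16.0% of all genes, and without null array 1 5 rose, and with either wild-type array left out 1 rose.

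Of 12 tested regulators of mitochondrial genes on the A chip 2 rose and 1 fell, 16.7% and 8.33% of the list. Over all genes of the chip 22.4% rose and 22.8% fell, so both shares of the regulators were lower. The median log2 fold change of the regulators was -0.12, and 5 of the 12 had a positive value. Esrra, a nuclear receptor that drives respiratory chain genes, stood at a log2 fold change of 0.95 and Ppara, a receptor of fatty acid oxidation genes, at 1.25, while Gabpb1, a subunit of the ETS factor GABP, fell by 0.62. The fall of Gabpb1 was not called without null array 2 or wild-type array 2, where the list had 0 falls, and 2 fell without null array 1. On the B chip 1 of 6 tested regulators rose and 0 fell (median 0.08), and the rise was 16.7%, beside 16.1% of all genes there. Of 12 A-chip genes of ATP and phosphate exchange 5 rose and 3 fell, 41.7% and 25% (median -0.01). The share that fell is near that of all genes. On the B chip 2 of 3 tested genes of this list rose and 0 fell (median 0.53), and with no filter 0 rose. On the A chip the creatine kinases of muscle, Ckmt2 (1.74) and Ckm (1.69), rose with the phosphate carrier Slc25a3 (0.91) and the ADP/ATP carriers Slc25a4 (0.51) and Slc25a5 (0.50). Slc25a3 was dim, at 61.1 and 39.9 in wild type and 133.0 and 81.2 in null (SE 0.27). The probe set of Ckm was not a plain one. Its plain probe set did not pass the filter and overlapped, at 64.6 and 29.7 in wild type and 60.4 and 58.9 in null. Ckmt1, the widely expressed mitochondrial creatine kinase, fell (-2.88), as did Ak4 (-1.66) and Atpif1, the inhibitor of ATP synthase (-0.96). Without wild-type array 2 this list had 2 rises.

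**Figure D4:**
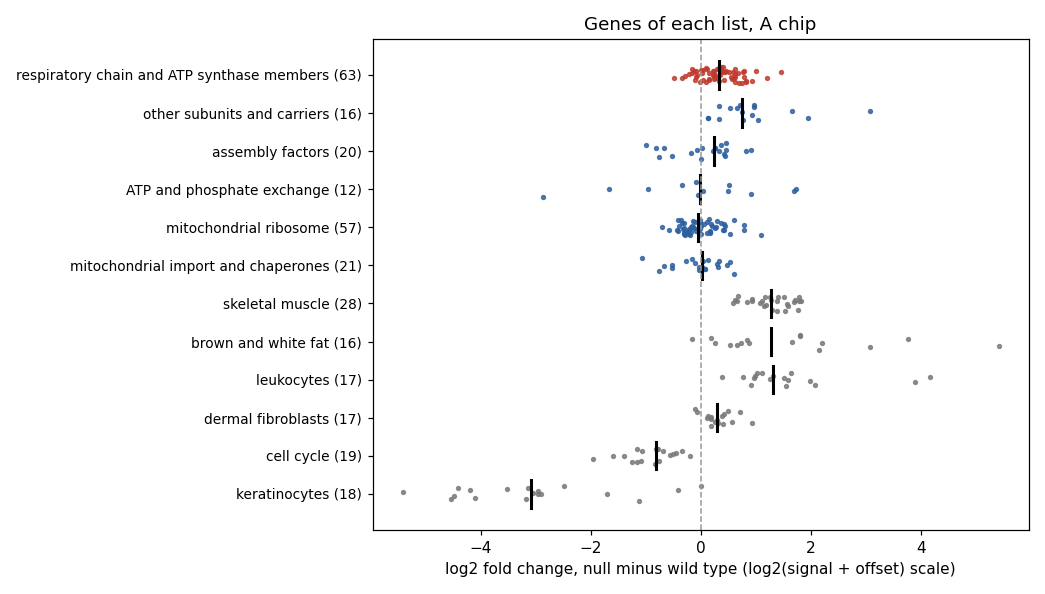
Log2 fold change (null minus wild type, x axis) of single tested genes on the A chip in each list, with the number of genes in brackets, black bars for list medians and a dashed line for the median of all genes. Respiratory chain members (red) centre on 0.33, below the muscle (1.29), fat (1.27) and leukocyte (1.32) markers and far above the keratinocyte markers (-3.09), and the mitochondrial ribosome centres on -0.05.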

How the data were processed

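RNA from whole embryonic skin was measured on single-colour Affymetrix arrays. Per the submitters' processing notes MAS5 made the deposited values, linear intensities with 1 per probe set. Neither its version nor detection calls are given in the sources used here. The authors' intensities were already scaled, to 2% trimmed means of 250.1 to 250.2 (A chip) and 500.1 (B chip). Precision is limited by the number of arrays.

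Each array was rescaled to a common 2% trimmed mean, and its 20th percentile over the chip, 12.9 (A) or 54.3 (B), was added as an offset before log2, which understates the change of dim genes. After removal of 66 control probe sets per chip, those with a mean log2 above the 40th percentile were tested, 7453 (A) and 7446 (B). Each chip was fitted apart with limma 3.58.1 in R 4.3.3 (lmFit, eBayes with intensity trend, two-sided), with Benjamini-Hochberg adjustment over all tested probe sets and a threshold of 0.05. Every adjusted p comes from such a fit. Scripts were tested on simulated data.

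Names of probe sets come from the platform annotation and may be old. Groups came from the titles. No source ties equal replicate numbers of the genotypes, so the genotypes were compared without pairing. Named were, per complex, the largest changes past the threshold, the redox and catalytic core, isoform pairs and genes whose probe sets disagreed. Other genes are named as extremes of a list. The members and the gene lists were chosen with earlier results of these data known. Alternatives covered scaling, offset, filter, variance model, replicate block, left-out arrays and the probe set standing for a gene. A set of plain probe sets only was added after seeing the data.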

Additional observations from a re-analysis of the deposited data

How the results depend on the processing

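With 2 arrays per group, single arrays decide many calls. No called result changed direction under these alternatives. On the A chip, no filter and no variance trend each gave 21 genes higher and 0 genes and 0 probe sets lower, with 2 genes higher in complex IV, and with no filter 1 in complex V. Quantile normalization gave 2 genes and 2 probe sets lower, and plain probe sets only gave 0 genes lower. On the B chip no filter gave 1 gene and 1 probe set lower, and plain probe sets only gave 2 genes higher. Leaving out each array in turn gave 15 to 35 genes and 17 to 38 probe sets higher and 0 to 3 lower (A chip), with 6 to 17 higher in complex I, 2 to 4 in complex III, 2 to 4 in complex IV and 1 to 6 in complex V. On the B chip it gave 1 to 4 higher and 0 to 1 lower. Complex II kept 4 genes higher throughout. Same-numbered arrays of the genotypes deviated together at correlations of 0.0389 (A chip) and -0.0465 (B chip), and no source says whether the numbers pair them. The replicate block gave 26 higher and 1 lower among A-chip genes and 4 higher and 0 lower among B-chip genes; on the A chip it ended the calls of Ndufv2 (adjusted p = 0.051), Cox6a1 (0.058) and Atp5a1 (0.062). Every other call of a named member was the same with and without it. Ndufa4 was not analysed here, so its count with complex IV was not run.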
